A study of Arabidopsis thaliana with 6 samples.

Results

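The rbohB mutant of Arabidopsis thaliana was compared with wild type across 3 temperatures, using all 6 arrays of the series, 3 of each genotype. Members were taken by genotype alone, and each mutant array was set against the wild-type array of the same temperature, so no measured value chose them. Wild type was accession Col-0. The mutant was 1 line with a dSpm transposon in AtrbohB (At1g09090). Seedlings raised on MS medium under 16 hour days were floated on distilled water at 20, 30 or 40 °C, and 90 plants were pooled for each sample. There was 1 array for each genotype and temperature, and neither plant age nor the length of the treatment is in the labels. The title of the mutant 40 °C array carries the word repeat, without saying of what. No group has replicates, so the spread below is the spread of a genotype difference over the 3 temperatures, and only 1 insertion line stands for the mutation.

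Rboh proteins are NADPH oxidases of the plasma membrane. They pass electrons from NADPH to oxygen outside the cell, and the superoxide and hydrogen peroxide formed there act as signals in defence, growth and abiotic stress. Heat also brings on the heat shock response, in which heat shock factors switch on chaperones that keep other proteins folded.

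All 6 arrays measured RNA from whole seedlings, with shoot and root markers above the floor on each. Summed signal of 5 shoot genes was 11161 to 16730 in wild type and 12778 to 17132 in the mutant, and that of 3 root genes was 915.9 to 2644.7 and 850.6 to 2756.1. The root sum was mostly PYK10, with 789.9 to 2684.3 over the 6 arrays, while EXPA7 and EXPA18 had 23.7 to 51.8. In RNA of whole seedlings, fewer cells of a type and less RNA per cell cannot be told apart. The floor, 13.7, is the 25th percentile of all values pooled, and 22.9% to 27.6% of values on an array lay at or under it. The mutant 30 °C array stood apart in some of its controls. Its ratio of 3' to 5' GAPDH signal was 1.76, against 1.25 to 1.39 on the other arrays, and its 25S rRNA probe set had 1208 against 2102 to 3195. The same ratio for actin, 5.87, lay within the 3.29 to 6.57 of the other arrays. That for ubiquitin, 2.61, was just above the highest of the others, 2.59. The 9 probe sets of the added hybridization controls were brighter on the mutant arrays, with median differences of 0.079, 0.83 and 0.47 (log2) at 20, 30 and 40 °C. The median signal of the mutant 30 °C array was the lowest (38.5, against 40.8 to 44 elsewhere). RBOHB has no probe set of its own among those with a listed gene, so its level was not analysed here.

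The first question was which genes differed between the genotypes by a constant sign at 20, 30 and 40 °C. With limma and temperature as a factor, 0 of 18227 probe sets (0.00%) passed an adjusted p of 0.05. At an unadjusted p under 0.05 there were 735, or 4.03%. The smallest adjusted p was 0.278, that of QQS, and the next was 0.978. Counted by sign alone, 1860 probe sets (10.2%) were higher and 2079 (11.4%) lower in the mutant at all 3 temperatures. By at least 1.2-fold at each temperature, 75 were higher (0.411%) and 88 lower (0.483%), or 0.894% in all. These counts were 103 and 80 after quantile normalization and 103 and 76 with each array centred on its median, so which direction is the more frequent turns with the scaling. The probe sets with such shifts were dim, with a median signal of 33.8 for those higher and 32.8 for those lower, against 65.5 over all tested. Mutant and wild-type signals did not overlap for 26 of the 75 and 28 of the 88. Over all probe sets tested, 187 higher and 201 lower had no overlap.

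QQS (QUA-QUINE STARCH, AT3G30720), a gene that affects the starch content of leaves, showed the largest shift of constant sign among named genes. Signals at 20, 30 and 40 °C, the order kept for all genes here, were 41.4, 45.5 and 75.9 in wild type, against 93.6, 103.5 and 159.2 in mutant seedlings. All 3 mutant arrays lay above all 3 wild-type arrays, and both genotypes were highest at 40 °C. QQS was higher in mutant seedlings by 1.18, 1.19 and 1.07 on the log2 scale, a mean of 1.14 ± 0.12 (SE from limma, 3 pairs), or 2.21-fold, with an adjusted p of 0.278. QQS was the only probe set that differed by 2-fold or more in the same direction at all 3 temperatures. Its difference ranged from 0.94 to 1.18 over the alternatives tried, and it passed the test with 2 of them. With log2(value + 16) the adjusted p of QQS was 0.0242, and with only probe sets above the floor on all 6 arrays it was 0.0209. Over all alternatives it ran from 0.0209 to 1, the highest without the temperature term and without the 40 °C pair.

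**Figure D1:**
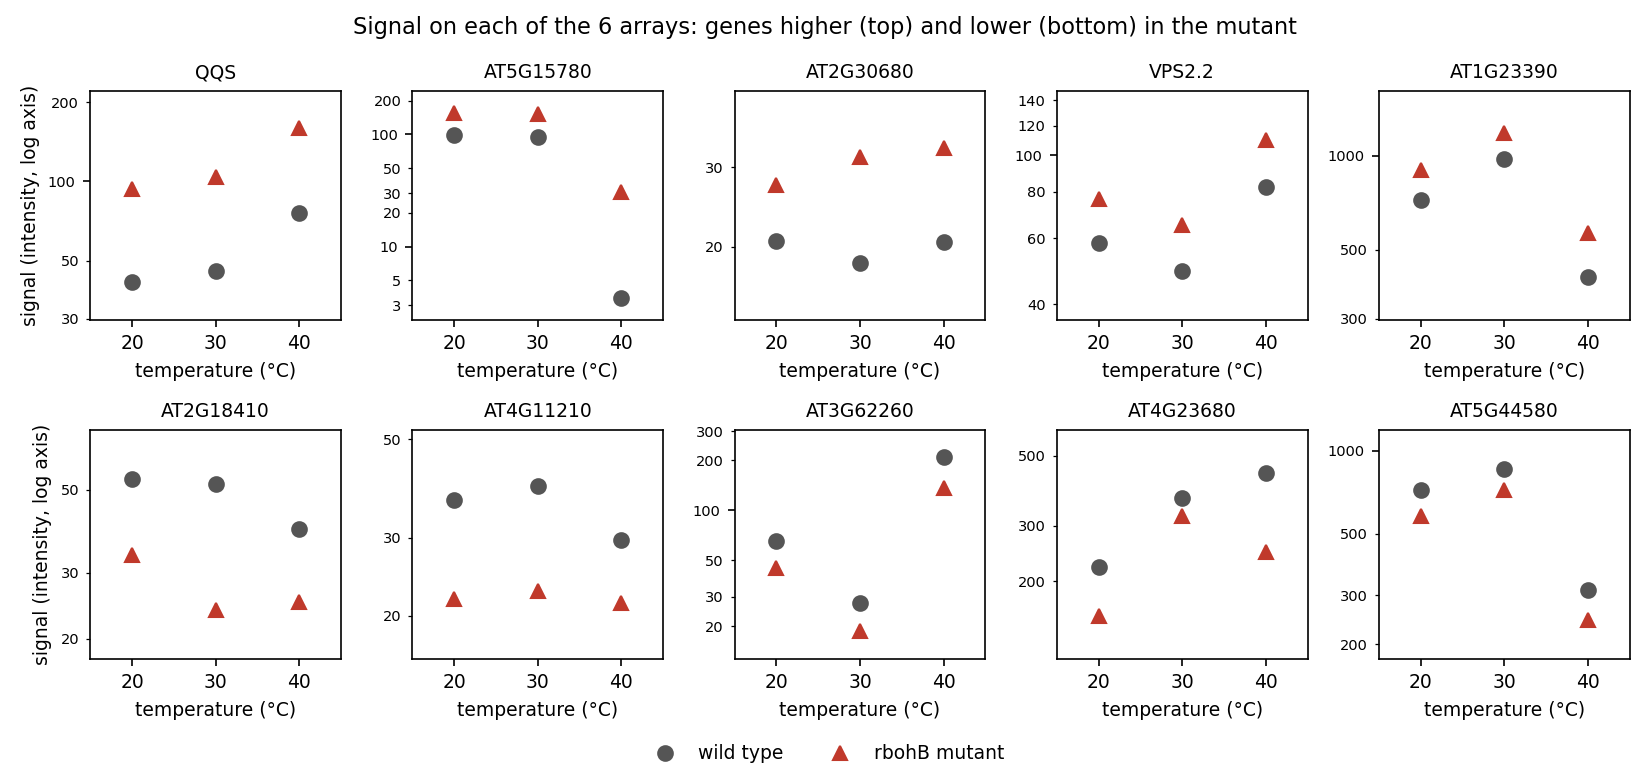
Signal (intensity, log axis) of 10 genes on each of the 6 arrays against temperature; circles are wild type, triangles the rbohB mutant, and each point is 1 array. The upper row holds genes higher in the mutant at each temperature and the lower row genes lower at each; QQS, AT2G30680, AT2G18410 and AT4G11210 have no overlap between genotypes, and the wild-type signal of AT5G15780 at 40 °C, 3.5, lies under the floor of 13.7.

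The other 11 genes with the largest constant differences on the higher side were mostly low in signal, and none passed the test (adjusted p = 0.978 for each in limma). AT5G15780 had 98.1, 95 and 3.5 in wild type, against 156.4, 152.9 and 30.4 in mutant seedlings, so it was lowest at 40 °C in both genotypes. Its differences were 0.67 and 0.69 at 20 and 30 °C, and at least 1.15 at 40 °C, where the wild-type signal is under the floor. AT2G30680 had 20.6, 18.4 and 20.5 in wild type, against 27.4, 31.7 and 33.2 in mutant seedlings, with no overlap and a mean difference of 0.63 ± 0.17. VPS2.2, a subunit of the ESCRT-III complex that sorts membrane proteins into vesicles, had 58.3, 49.2 and 82.1 in wild type, against 76.2, 65.2 and 110.0 in mutant seedlings. Its groups overlap, since both genotypes were highest at 40 °C, but the differences were nearly equal at 0.39, 0.41 and 0.42. The pseudogene AT3G42700 lay under the floor in wild type throughout and reached 20.7, 24 and 22.2 with the mutation, a geometric mean of 1.62 times the floor. AT5G35640, AT5G67350 and AT4G12500 also had no overlap between genotypes, with mean differences of 0.66, 0.54 and 0.60. AT5G01080, AT5G38780, AT1G80450 and AT5G01910, whose groups overlap, had 0.78, 0.52, 0.48 and 0.46, the first 3 of them with wild type under the floor on 1 array.

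The 8 higher genes with the smallest p among those above the floor on all 6 arrays held brighter genes too. AT1G23390 had 722.3, 974.4 and 408 in wild type, against 898.6, 1180 and 564.4 in mutant seedlings. Its signal followed temperature in both genotypes, so the groups overlap, and the difference was 0.35 ± 0.08, with 0.32, 0.28 and 0.47 at the 3 temperatures. AT3G06070 had 184.1, 462.9 and 96.2 in wild type, against 203.8, 620.4 and 164.1 in mutant seedlings, with differences of 0.15, 0.42 and 0.77 and a mean of 0.45 ± 0.12. AT2G07718, with 44.9, 79.4 and 185.3 in wild type, against 65.8, 100 and 243.4 in mutant seedlings, differed by 0.43 ± 0.11. The name of its probe set ends in _s_at, and AT2G07718 found no RefSeq entry. Whether other transcripts add to its signal was not tested. Unadjusted p-values from limma were 0.0025, 0.0064 and 0.0056 for these 3 genes, and the adjusted p was 0.978 for each. The others of these 8 were QQS, AT5G35640, AT2G30680 and the plastid ribosomal protein genes rpl33 and rps18, which are described with the plastid genome.

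On the lower side, AT2G18410 had the largest constant shift among named genes. It had 53.6, 51.8 and 39.3 in wild type, against 33.4, 23.9 and 25.1 in mutant seedlings. The genotypes did not overlap, and the differences were -0.68, -1.12 and -0.65, with a mean of -0.82 ± 0.18 (adjusted p = 0.978 in limma). AT3G62260 had 65.1, 27.6 and 209.7 in wild type, against 44.6, 18.6 and 136.3 in mutant seedlings. Its level was lowest at 30 °C and highest at 40 °C in both genotypes, and the mutant was lower by nearly the same amount each time, -0.55, -0.57 and -0.62. AT4G11210 had 36.4, 39.3 and 29.6 in wild type, against 21.8, 22.7 and 21.4 in mutant seedlings, again without overlap, a mean difference of -0.67 ± 0.17. AT5G04460 had 41.1, 36.6 and 45.5 in wild type against 27.3, 27.2 and 28.7 in the mutant, a difference of -0.56 ± 0.17 without overlap.

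UGT71C1, a glycosyltransferase that adds glucose to flavonoids and related phenolics, had 34.8, 38 and 44.3 in wild type, against 26.4, 21.8 and 30.2 in mutant seedlings, with no overlap and a mean of -0.58 ± 0.17. AT5G11600, AT3G45700 and AT1G61370 had no overlap either, with fitted differences of -0.72, -0.63 and -0.54. The mutant signal was under the floor at 40 °C for AT5G11600 and at 30 and 40 °C for AT1G61370, and the differences at those temperatures are limits. AT1G19340, AT5G37590, AT3G03000 and AT1G63740, whose groups overlap, had -0.68, -0.65, -0.55 and -0.50, with the mutant under the floor on 1 array for the first and the last. Every one of these had an adjusted p of 0.978 in limma.

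The brighter genes lower in the mutant included AT5G44580, with 723.2, 861.3 and 313.6 in wild type, against 580.5, 718.2 and 244.9 in mutant seedlings. Its groups overlap, and its differences lay close together at -0.32, -0.26 and -0.36. AT1G68440 had 854.8, 638.9 and 107.5 in wild type, against 670.7, 510.6 and 90.2 in mutant seedlings, and its differences were -0.35, -0.32 and -0.25 while the signal itself was far lower at 40 °C in both genotypes. AT4G23680 had 221.6, 367.9 and 441.6 in wild type, against 155.7, 321.2 and 246.9 in mutant seedlings, a mean of -0.51 ± 0.12 with the largest step at 40 °C. AT3G06780 and AT4G27657 differed by -0.40 ± 0.10 and -0.48 ± 0.13. For these 5 genes the genotypes overlap, because the change with temperature is larger than that with genotype.

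Among probe sets without a listed gene, 259553_x_at stood out. It had 151.2, 136.9 and 122.6 in wild type, against 260.3, 504.2 and 195.2 in mutant seedlings, with no overlap and differences of 0.78, 1.88 and 0.67. Its name ends in _x_at, a form that Affymetrix gives to probe sets that may bind several transcripts. 259784_at was higher by 0.93 and 0.69 at 20 and 30 °C and by at least 1.32 at 40 °C, where wild type is under the floor. On the lower side, 257840_at had 38.8, 20.6 and 61.7 in wild type, against 25.6, 13.3 and 29.7 in mutant seedlings. These probe sets carry no gene name here.

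The genotype differences at the 3 temperatures share no array and hardly resembled each other. Across 18227 probe sets, Pearson's r between the differences at 20 and 30 °C was -0.094, that for 20 and 40 °C 0.062 and that for 30 and 40 °C 0.025, where all probe sets of a temperature share the same pair of arrays. Among the 4557 probe sets with the highest signal, r was -0.037, 0.137 and -0.023. The 3 sets of differences had SDs of 0.277, 0.283 and 0.350, and their mean over temperatures had an SD of 0.177. At 2-fold or more, 71 probe sets were higher (0.390%) and 43 lower (0.236%) in the mutant at 20 °C, 26 (0.143%) and 91 (0.499%) at 30 °C, and 84 (0.461%) and 199 (1.09%) at 40 °C. Between 20 and 30 °C, 2 of the higher probe sets and 1 of the lower were shared, and 5 went in opposite directions.

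**Figure D2:**
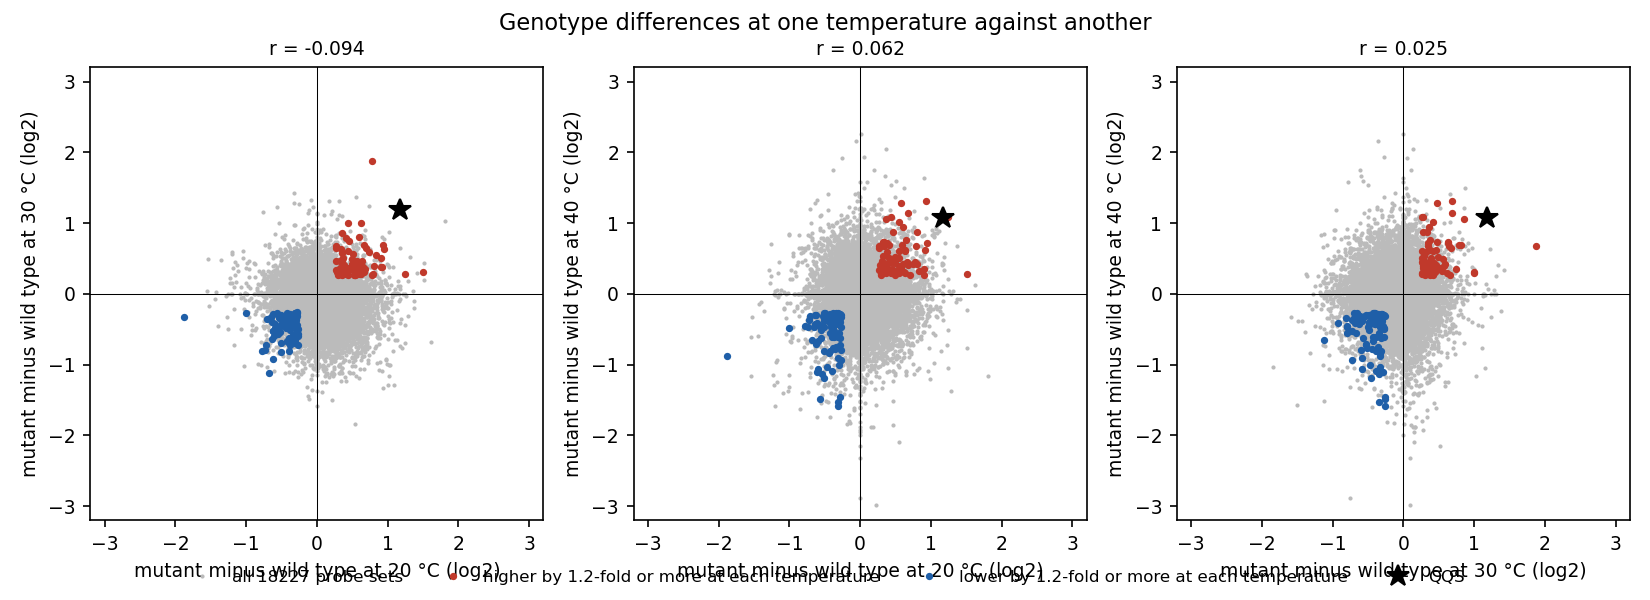
Mutant minus wild type (log2) of every tested probe set at one temperature against another, with Pearson's r above each panel; red and blue points differ by at least 1.2-fold in the same direction at each temperature (75 higher, 88 lower) and the star is QQS. The clouds are round, with r between -0.094 and 0.062, and QQS lies near 1.1 on each axis.

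The overlap at 20 and 40 °C held a set of 9 probe sets that were at least 2-fold lower at both temperatures, 20.9% of the 43 lower at 20 °C and 4.52% of the 199 lower at 40 °C. None of the 9 was lower at 30 °C, where 8 were higher and 1 was equal at the floor, by 0.00 to 0.49. Of these, 4 have a gene of their own, and all 4 are named because their values were seen. STZ (ZAT10), a zinc finger repressor that responds to salt, cold and oxidative stress, had 171.6, 183.4 and 1327 in wild type, against 58.9, 257.4 and 596.4 in mutant seedlings. Its differences were -1.54, 0.49 and -1.15, so its sign was not constant. AT3G10930 had 71.3, 67.6 and 207.9 in wild type, against 31.5, 87 and 87.4 in mutant seedlings, and AT1G25400 had 62, 373.9 and 104.1 against 30.6, 377 and 40.1. AT4G15690 had 27.5 and 30.2 in wild type at 20 and 40 °C against 12.1 and 7.5, both under the floor, in the mutant. The difference between temperatures was not tested, since each rests on 1 pair of arrays.

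**Figure D3:**
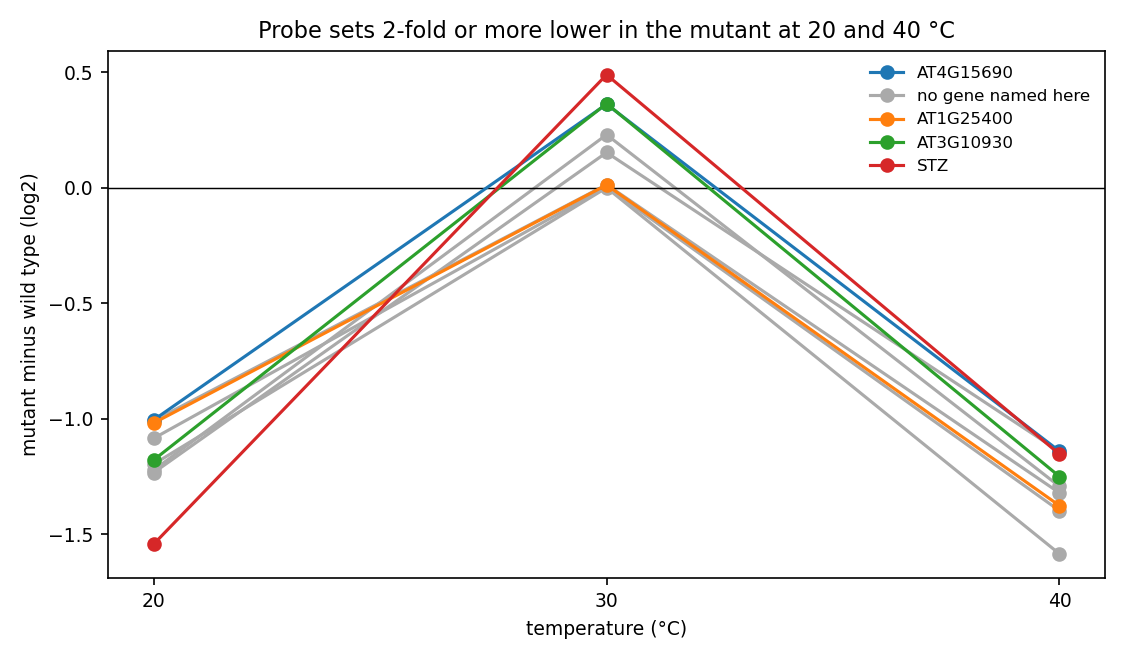
Mutant minus wild type (log2) against temperature for the 9 probe sets at least 2-fold lower in the mutant at 20 and 40 °C; each line joins the 3 differences of 1 probe set, coloured where it has a gene of its own. All 9 lie between 0.00 and 0.49 at 30 °C and at least 2-fold below 0 at 20 and 40 °C, as their choice requires.

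The second question was whether gene families shifted together. Of 45 families looked for, 30 had at least 4 genes tested. Over all probe sets the medians of the differences were 0.00, -0.02 and 0.00, and 10.2% were higher and 11.4% lower at all 3. In 5 of the 30 families the median had the same sign at all 3 temperatures: above 0 for the auxin genes, the bHLH factors and the xyloglucan endotransglucosylases, and below 0 for the chaperones and the plant U-box ligases. With the arrays centred on their medians, that of the bHLH factors was 0.00 at 20 °C and that of the chaperones 0.08 at 30 °C. Some of these medians lay near 0, with -0.01 for the chaperones at 30 °C. The xyloglucan endotransglucosylases had 0.003 at 40 °C, and 0.00 with the floor at the 40th percentile. The count of 5 families was not tested. The median of the 7 bHLH genes' mean differences was -0.01, on the other side of 0. No member of any family passed the limma test.

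**Figure D4:**
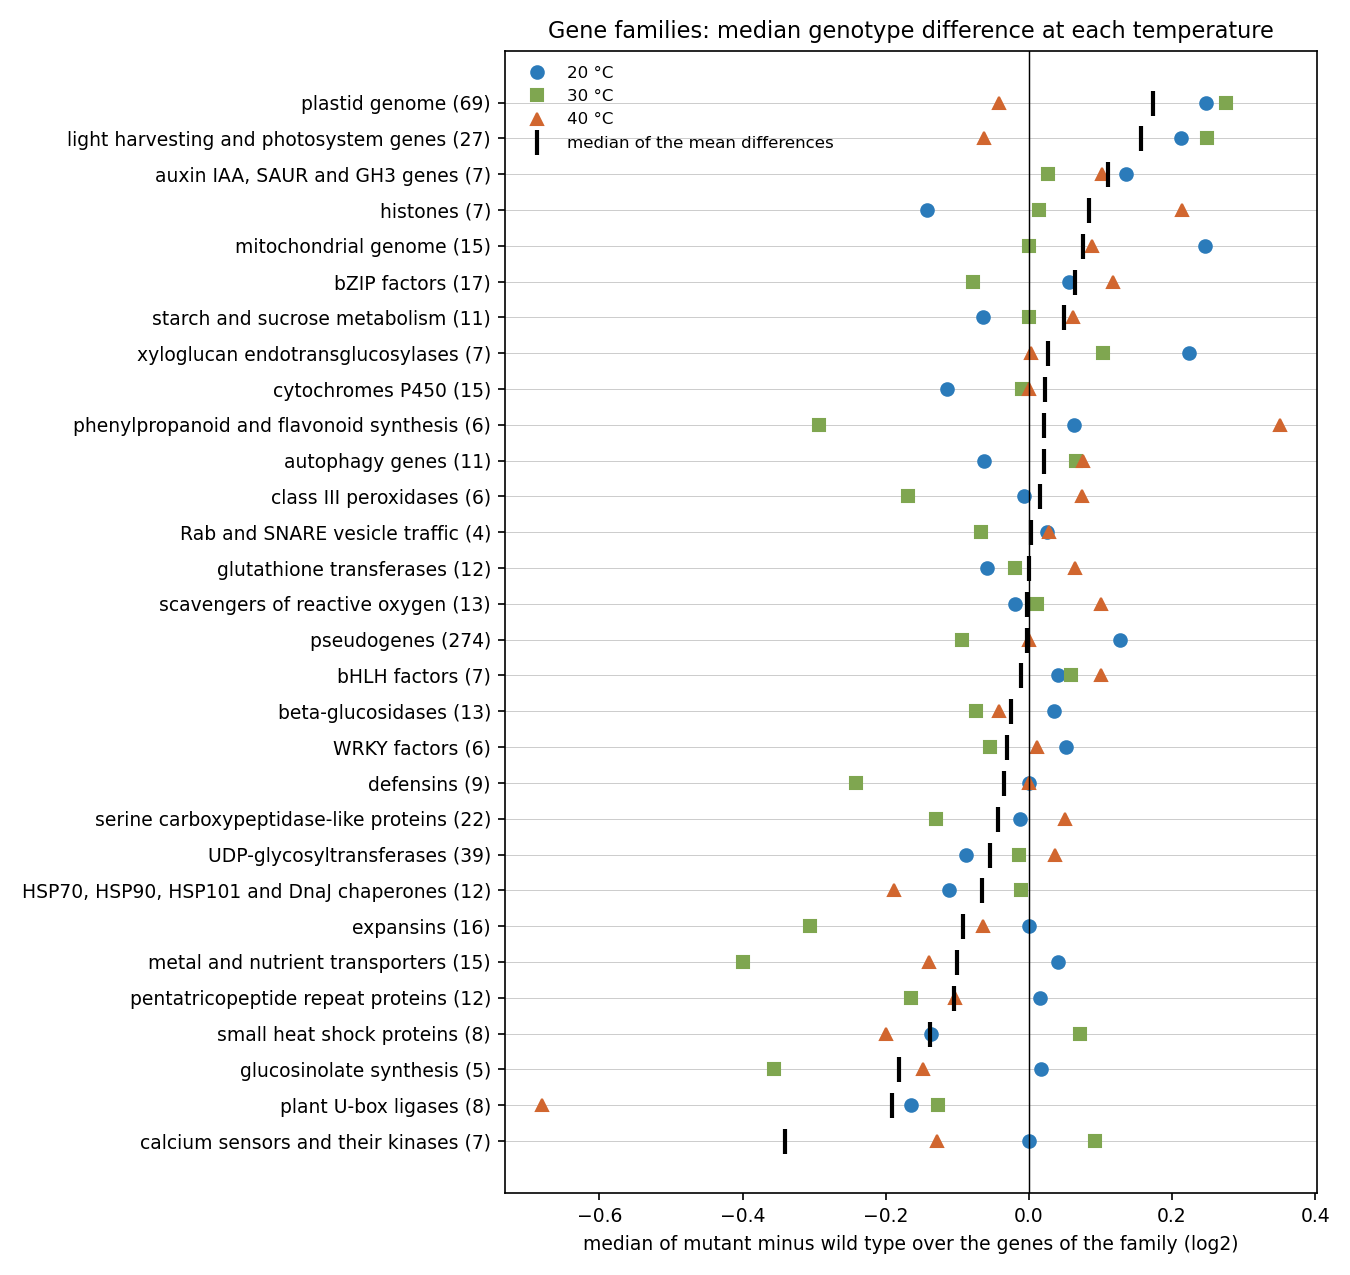
Median over the genes of each family of mutant minus wild type (log2) at 20 °C (circles), 30 °C (squares) and 40 °C (triangles), with a bar for the median of the genes' mean differences; the number of genes is in brackets and families are ordered by the bar. The plastid genome has 0.25, 0.27 and -0.04, and the plant U-box ligases have -0.17, -0.13 and -0.68.

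Of 69 genes of the plastid genome, all above the floor on all 6 arrays, 28 (40.6%) were higher in the mutant at all 3 temperatures and 1 lower, against 10.2% and 11.4% of all probe sets. The median difference was 0.25 at 20 °C and 0.27 at 30 °C but -0.04 at 40 °C. At both 20 and 30 °C, 57 of the 69 (82.6%) were higher, against 19.1% of all probe sets. None reached 1.2-fold at each temperature. Quantile normalization left 17 higher at all 3 (24.6%) and 2 lower, and took the median at 30 °C to 0.06, while the median at 20 °C was 0.23. The 30 °C value rests on the mutant array with the high GAPDH ratio and the low 25S rRNA signal, and the part of these in it was not tested. Plastid genes are transcribed together in long units, so they are not independent, and per the labels' protocol the RNA was copied from an oligo(dT) primer.

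Within the plastid genome, 10 of 15 genes for ribosomal proteins were higher at all 3 temperatures, and 8 of 15 after quantile normalization. Their medians were 0.23, 0.28 and 0.20, and they were the group with a median over 0.1 at 40 °C. rpl33, of the large ribosomal subunit, had 1564, 2132 and 626.3 in wild type, against 1991, 2458 and 985 in mutant seedlings, a difference of 0.40 ± 0.10. rps18, of the small subunit and next to rpl33 in the plastid genome, had 463.8, 488.4 and 107.9 in wild type, against 509.1, 662.1 and 163.1 in mutant seedlings, a difference of 0.39 ± 0.10. Both were lowest at 40 °C in each genotype. Signals of the genotypes overlap for both genes.

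The plastid genes for photosynthesis differed in sign at 40 °C. The medians of the 10 genes of the NAD(P)H dehydrogenase-like complex, which returns electrons to the photosynthetic chain, were 0.43, 0.29 and -0.14, and 3 were higher at all 3 temperatures. ndhG had 230.4, 274.7 and 247 in wild type, against 406.3, 344 and 270.1 in mutant seedlings, with differences of 0.82, 0.32 and 0.13 that shrank with temperature. ndhA had 868.2, 1151 and 1326 in wild type, against 1235, 1398 and 1512 in mutant seedlings, a mean of 0.33 ± 0.09. Photosystem II genes (15, of which 3 constant) had medians of 0.28, 0.22 and -0.10, and photosystem I genes (5, of which 3 constant) 0.32, 0.30 and 0.02. rbcL, the large subunit of Rubisco, was the plastid gene lower at all 3 temperatures, with -0.18, -0.05 and -0.41. It is named because it was the exception.

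**Figure D5:**
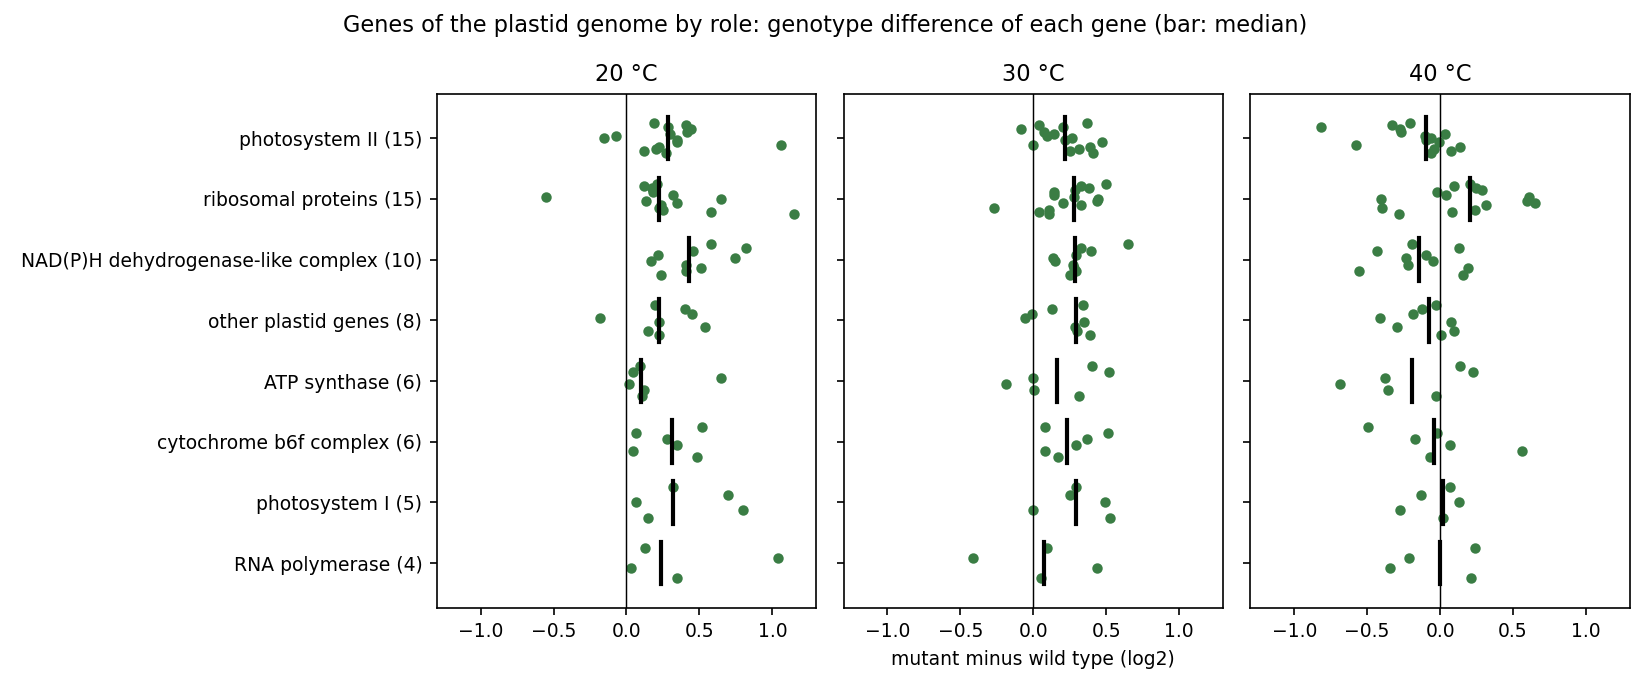
Mutant minus wild type (log2) of each of the 69 plastid genes at 20, 30 and 40 °C, in rows by role with the number of genes in brackets; each point is 1 gene and the bar is the median of the row. At 20 and 30 °C 65 and 60 of the points lie above 0, and at 40 °C 29 do, where the ribosomal protein row keeps a median of 0.20.

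The list of light harvesting and photosystem genes holds 27 genes, of which 20 are plastid genes already counted above. Of the 27, 9 were higher at all 3 temperatures and 0 lower, with medians of 0.21, 0.25 and -0.06; quantile normalization gave 3 and 2, with a median of 0.01 at 30 °C. Among the nuclear members, PSAE-1, a photosystem I subunit, had 2744, 2660 and 3672 in wild type, against 2875, 3164 and 4813 in mutant seedlings, a difference of 0.24 ± 0.10. LHCB4.1, a minor antenna protein of photosystem II, was higher by 0.21, 0.23 and 0.10, while its paralogue LHCB4.2 had -0.02, 0.03 and -0.09. The mitochondrial genome had 15 genes tested, of which 5 were higher and 1 lower at all 3 temperatures, with medians of 0.25, 0.00 and 0.09. The 5 include cox1, which had 2217 in wild type against 2217.1 in the mutant at 40 °C. nad5, a subunit of respiratory complex I, had 32.8, 49.8 and 2105 in wild type, against 36.8, 50.6 and 2428 in mutant seedlings, differences of 0.17, 0.02 and 0.21 that are small beside the step to 40 °C in both genotypes.

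The heat shock families had small medians, mostly below 0. None of the 8 small heat shock proteins, which hold unfolding proteins in a soluble state, was higher at all 3 temperatures, and 2 were lower. Their medians were -0.14, 0.07 and -0.20. At 20 °C 6 of the 8 were lower and the other 2 lay under the floor in both genotypes, and at 40 °C 7 were lower. AT5G37670 had 19.1, 154.5 and 853.2 in wild type, against 14.1, 138.4 and 734.8 in mutant seedlings, with differences of -0.44, -0.16 and -0.22. ATHSP22.0 had 25.3, 219.6 and 1074 in wild type, against 24.7, 133.5 and 946.1 in mutant seedlings, with -0.03, -0.72 and -0.18. After quantile normalization 5 of the 8 were lower at all 3 and the median at 30 °C was -0.13, so the sign at 30 °C turns with the scaling. With the floor at the 40th percentile 0 were lower at all 3.

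Among 12 chaperones and co-chaperones, 0 were higher and 2 lower at all 3 temperatures, with medians of -0.11, -0.01 and -0.19. Hop3, which links HSP70 to HSP90, had 45.7, 1287 and 906.7 in wild type, against 38.5, 1269 and 799.8 in mutant seedlings, so it was highest at 30 °C in both genotypes, and the differences were -0.25, -0.02 and -0.18. ATERDJ2B, of the protein import channel of the endoplasmic reticulum, had -0.14, 0.00 and -0.23. ATJ1, a DnaJ protein of mitochondria, had 0.21, -0.57 and -0.31, without a constant sign. Centring the arrays gave 1 chaperone higher and 0 lower at all 3, so the direction at 30 °C is set by the scaling.

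NADPH oxidase homologues were measured by 2 probe sets at low signal. AT1G19230 had 18.4, 11.9 and 24.2 in wild type, against 25.4, 15.2 and 18.8 in mutant seedlings, and its sign was not constant (0.47, 0.15 and -0.36). AT4G25090 had 22.6 in wild type, against 14.3 in mutant seedlings at 20 °C and lay under the floor at 30 and 40 °C in both. Of 13 genes in a joint list of enzymes that scavenge reactive oxygen and of thioredoxins, 3 were higher and 1 lower at all 3 temperatures. The 3 were thioredoxins of the chloroplast. ATHM2 (thioredoxin m2) had 1181, 1041 and 1126 in wild type, against 1242, 1254 and 1282 in mutant seedlings, with no overlap and a difference of 0.18 ± 0.08. ty2 (thioredoxin y2) had 527.4, 370.5 and 504.8 in wild type, against 549.2, 427.7 and 611.7 in mutant seedlings, also 0.18 ± 0.08. TRXF2, of the f type, differed by 0.08. SAPX, the stromal ascorbate peroxidase, was lower, at -0.10, with 205.4, 81 and 188.3 in wild type against 183.9, 80.6 and 170.5.

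Plant U-box proteins are ubiquitin ligases, and PUB22 and PUB23 restrain immune and drought signalling. Of 8 measured, 3 were lower and 1 higher at all 3 temperatures, with medians of -0.17, -0.13 and -0.68. PUB23 had 81.3, 158.8 and 288.2 in wild type, against 65.2, 141.1 and 94.8 in mutant seedlings, with differences of -0.32, -0.17 and -1.60. PUB22 had 51.2, 133.3 and 131.9 in wild type, against 50.2, 112.8 and 58.2 in mutant seedlings, with -0.03, -0.24 and -1.18. PUB25 had 43.3, 29.7 and 60.3 against 34.3, 23.1 and 35.8, with -0.34, -0.36 and -0.75, and PUB24 was higher by 0.22, 0.01 and 0.05. The median at 30 °C was -0.04 both after quantile normalization and with centring.

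The calmodulin-like calcium sensors held the largest single difference at 40 °C among the 30 families. Of 7, 1 was higher and 1 lower at all 3 temperatures. CML38 was under the floor at 20 °C in both genotypes and had 117.1 and 316.1 in wild type at 30 and 40 °C against 129.7 and 82.1 in the mutant, a difference of -1.94 at 40 °C. CML37 had 81.1 in wild type, against 16.3 in mutant seedlings at 40 °C, a difference of -2.31, and 16.7 against 17.8 at 30 °C. CML23, lower at all 3, had 56.3, 28.5 and 214.6 in wild type, against 31, 26.6 and 172.7 in mutant seedlings, with -0.86, -0.10 and -0.31. CML43, higher at all 3, differed by 0.25 ± 0.16.

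UDP-glycosyltransferases, which attach sugars to hormones and secondary metabolites, had 39 genes tested, of which 3 (7.69%) were higher and 8 (20.5%) lower at all 3 temperatures, with medians of -0.09, -0.01 and 0.04. The 8 lower were UGT71C1, UGT76E2, UGT72E2, UF3GT, UGT78D2, UGT78D1, GT72B1 and UGT74D1, and they held the flavonol glycosyltransferases UGT78D1 (-0.13) and UGT78D2 (-0.15). UGT72E2, which glucosylates lignin precursors, had 111.5, 53.1 and 144.1 in wild type, against 89.3, 39.7 and 121 in mutant seedlings, a difference of -0.33 ± 0.12. UGT76E2 had 24.7, 71.7 and 17.8 against 19.6, 48 and 9.5, with -0.33, -0.58 and -0.38, the last a limit, since the mutant is under the floor at 40 °C. On the higher side, UGT71C3 had 15.1, 19.2 and 12.2 in wild type, against 23, 20.9 and 16.4 in mutant seedlings. Among 6 genes of phenylpropanoid and flavonoid synthesis, HCT, an enzyme of the lignin branch, was higher at all 3 (mean 0.16) and CCR2, of the same branch, lower (-0.27).

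Of 15 transporters of metals and nutrients, 4 (26.7%) were lower and 0 higher at all 3 temperatures, with medians of 0.04, -0.40 and -0.14. AT3G21670 (NPF6.4), of the nitrate and peptide transporter family, had 1787, 493.7 and 615.3 in wild type, against 1568, 450.6 and 558.7 in mutant seedlings, with close differences of -0.19, -0.13 and -0.14. AT3G25260 (NPF4.1), of the same family, had -0.62, -0.52 and -0.30, the first a limit, since the mutant was under the floor at 20 °C. ZIP6, of the zinc and iron transporter family, had 70.2, 45.6 and 50.0 in wild type, against 64.1, 30.4 and 39.2 in mutant seedlings, a difference of -0.36 ± 0.17. GTR2, which carries glucosinolates, had -0.06, -0.19 and -0.30. Its paralogue GTR1 was not constant: 163.8, 163.5 and 148.5 in wild type, against 166.6, 104.7 and 84.6 in mutant seedlings gave 0.02, -0.64 and -0.81.

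Among families of hormone and growth genes, GH3.3, which conjugates auxin to amino acids, had 54.4, 305.1 and 75.4 in wild type, against 60.4, 374.6 and 115.1 in mutant seedlings, a difference of 0.35 ± 0.12. It and IAA18, an auxin response repressor (0.11), were the 2 of 7 auxin genes higher at all 3, and 0 were lower. In the bZIP factors 3 of 17 were higher and 1 lower. BZIP61 had 14.8, 130.3 and 49.4 in wild type, against 29.1, 144.6 and 69.6 in mutant seedlings, with 0.98, 0.15 and 0.49. Among 7 bHLH factors, bHLH115 and ILR3 were higher at all 3, by 0.20 and 0.11, and 0 were lower. bHLH34 (-0.07, -0.44 and 0.11) and BHLH101 (0.41, -0.41 and 0.36) had no constant sign. Of 7 xyloglucan endotransglucosylases, which remodel the cell wall, 2 were higher (EXGT-A3 by 0.15 and XTH19 by 0.14), and of 16 expansins 2 were lower (EXPB2, -0.23, and EXPA9, -0.21). These are means, and each gene came near 0 at 1 temperature. EXGT-A3 had 373.5 in wild type against 374.2 in the mutant at 40 °C, and XTH19 differed by 0.04 at 30 °C. EXPB2 had -0.05 at 20 °C and EXPA9 -0.03 at 40 °C. Among 22 serine carboxypeptidase-like proteins 3 (13.6%) were higher and 5 (22.7%) lower, led by scpl29 at 0.31 and scpl46 at -0.48. Both differed most at 40 °C, with 0.06, 0.13 and 0.75 for scpl29 and -0.16, -0.30 and -0.97 for scpl46. Of the 274 pseudogenes tested, 20 (7.30%) were higher and 17 (6.20%) lower.

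For 3 families no member held a constant sign: 6 WRKY factors, 11 autophagy genes and 7 histones. In the starch and sucrose family, QQS and AT4G24450 (-0.23) were the 2 of 11 with constant sign. AMY1, an alpha-amylase of starch breakdown, had 15.7, 25 and 22.4 in wild type, against 36, 14.7 and 36.8 in mutant seedlings, and no constant sign. In the defensins 1 of 9 was lower at all 3 (PDF2.5, -0.20). PDF1.2b, a jasmonate-responsive defensin, had 18.9, 206.4 and 40.4 in wild type, against 27.6, 57.7 and 19.8 in mutant seedlings. Its differences were 0.55, -1.84 and -1.03. The name of its probe set ends in _x_at, so the signal may come from several transcripts. PDF1.2, with a probe set of its own, was under the floor at 20 °C in both genotypes. It differed by -0.92 at 30 °C and -0.39 at 40 °C, less than PDF1.2b. The glutathione transferases, with 1 of 12 lower and 0 higher, had medians of -0.06, -0.02 and 0.06.

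The insertion lies in chromosome 1, and the genes beside it were read separately. Of the 10 nearest genes on each side, 6 were measured. SRC2, a C2 domain protein before RBOHB, had 535.3, 1921 and 1621 in wild type, against 443, 2446 and 1094 in mutant seedlings, with -0.27, 0.35 and -0.57. AT1G09130 and AT1G09150, after RBOHB, were lower at all 3 temperatures, with means of -0.05 and -0.22. AT1G09010, AT1G09160 and AT1G09170 had no constant sign. BIP3 and RPT5B, next to the insertion on either side, have no probe set of their own here. Within 500 kb of RBOHB, 10 of 91 genes were higher and 6 lower at all 3 temperatures, and over chromosomes 1 to 5 the shares were 8.70% to 11.1% higher and 10.6% to 11.5% lower.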

How the data were processed

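RNA of pooled seedlings was measured on 6 Affymetrix ATH1 arrays, 1 for each genotype and temperature. The deposited values are linear intensity per probe set. The mean of an array without its highest and lowest 2% was 100, rounded, as an average over the 6 arrays. The summary method and software are not given in the sources used here.

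Of 22810 probe sets, 64 controls were left out. The platform annotation gives 1 gene for 13513, several for 503 and none for 8730. Of those with 1 gene, 13436 took their symbol from RefSeq (TAIR 10.1) and 77 found no entry. The brightest such probe set stood for a gene.

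A floor of 13.7, which is not a detection limit, was set under the values before log2. Of the probe sets, 18227 exceeded it on at least 2 arrays and entered limma 3.58.1 under R 4.3.3 (genotype and temperature, eBayes with trend, 6.08 prior degrees of freedom, two-sided, Benjamini-Hochberg adjustment over all). With 2 residual degrees of freedom, p-values measure departure from additivity and array noise, not the spread between plants. The number of arrays limits the precision. Counts by sign and by 1.2-fold have no test. A pair with both arrays at or under the floor is a tie and counts as no sign, which lowers such counts among dim probe sets.

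Genes and families were chosen with earlier results of these data known. Named genes are the 12 each way with the largest smallest difference of constant sign, the 8 each way with the smallest p above the floor on all arrays, up to 4 per family of at least 4 genes, the NADPH oxidases and the neighbours of RBOHB; others are marked. Alternatives were other scalings, floors, filters, priors and folds, no temperature term and each temperature pair left out. Figures were drawn with matplotlib 3.10.9. No sequence is shown, since no sequence table or genome was used here.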

Additional observations from a re-analysis of the deposited data

Results flagged for a closer look

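The median difference of the genes of phenylpropanoid and flavonoid synthesis had opposite signs at 30 and 40 °C. Over 6 genes it was -0.29 for the 30 °C pair and 0.35 for the 40 °C pair. At 30 °C 5 of the 6 were lower, and at 40 °C 4 were higher. HCT was higher at both temperatures (0.02 and 0.30) and CCR2 lower at both (-0.25 and -0.14). CHIL, which assists chalcone isomerase, had 150.7 in wild type against 119.5 in mutant seedlings at 30 °C, then 204.3 against 355.4 at 40 °C. DFR, an enzyme of anthocyanin synthesis, had 64.6 against 50.2 at 30 °C and 68.2 against 89.8 at 40 °C. The difference between temperatures was not tested.

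Signal was also read from control probe sets outside the comparison. The 9 probe sets of the hybridization controls bioB, bioC, bioD and cre, RNA added in the laboratory, were brighter on the mutant arrays. Their median difference for the pairs at 20, 30 and 40 °C was 0.079, 0.83 and 0.47, and 6, 8 and 8 of the 9 were higher in the mutant. The geometric mean was 260.0, 261.0 and 367.7 on the wild-type arrays and 296.0, 461.8 and 525.3 on the mutant arrays. Its part in the results was not tested.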

How the results depend on the processing

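limma called 1 probe set, QQS, with log2(value + 16) and with only probe sets above the floor on all 6 arrays, and 0 with every other alternative. Without a temperature term and so with no replicate block, 62 had an unadjusted p under 0.05, against 735. No paired analysis by replicate number was possible because each group holds 1 array; the arrays were paired by temperature throughout. Counts of constant sign over the remaining 2 temperatures were 3481 to 4830 higher and 3989 to 4757 lower with a pair left out, and counts of 1.2-fold shifts were 301 to 724 higher and 385 to 790 lower; fewer temperatures have to match, which by construction raises such counts. The 75 higher and 88 lower became 343 and 407 at 1.1-fold, 6 and 2 at 1.5-fold, 30 and 29 with the floor at the 40th percentile, 363 and 387 with no floor and no filter, and 44 and 34 with log2(value + 16). Of 1225 mean differences of 105 named genes under the alternatives, 1217 kept sign and side of the threshold, 2 (QQS) came past it and 6 turned sign. The 6 came from 5 genes. These are means over the temperatures, so the counts do not follow a constant sign at each temperature. Such a sign can be lost while the mean keeps its own: 2 chaperones were lower at all 3, and 0 with the arrays centred. No named gene passed the threshold in the main fit. AT1G09010 had 0.012 after quantile normalization. As a pair was left out, AT1G09010 ran from -0.059 to 0.019, AT1G19230 from -0.11 to 0.31, SRC2 from -0.42 to 0.038, AT1G09160 from -0.051 to 0.34 and AT1G09170 from -0.21 to 0.072; the cause was not tested. Of 268 medians of 30 families, 251 moved by less than their SD over the 3 temperatures. The median of the mean differences of the calcium sensors lay between -0.56 and -0.05 as a pair was left out.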
